A study of Nematostella vectensis with 9 samples.

Results

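Nematostella vectensis (starlet sea anemone) embryos injected with RNA encoding dominant negative NvTCF (dnTCF) were compared directly with embryos injected with a morpholino against NvBMP2/4. The comparison used the 3 libraries titled for dnTCF and the 3 titled for the BMP2/4 knockdown, 6 of the 9 libraries in the series, and it took them by title alone. The other 3 libraries came from embryos injected with dextran, and they are given beside the comparison. All embryos were injected as fertilized eggs, raised at 17 °C and collected at 24 h after fertilization, and poly-A RNA from whole embryos was sequenced. The samples of a group are described as biological replicates in the design text, which does not say which clutch or injection each came from. The labels give no strain, dose or injected amount, and no uninjected group was analysed here.

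TCF proteins bind DNA and, together with β-catenin, switch on the targets of canonical Wnt signalling. A dominant negative TCF occupies those sites without activating them. BMP2/4 is a secreted ligand that acts through Smad proteins, and morpholinos are synthetic oligonucleotides that pair with a target RNA and keep it from being translated or spliced. In Nematostella, Wnt signalling is known for patterning the oral to aboral axis and BMP signalling for the directive axis, which runs across it. The title of the series sets the pathways against each other, and both injected molecules were nucleic acids, so each serves here as the other's injected counterpart. The molecules differed in kind, an RNA that encodes a protein and a morpholino. In any difference between the groups, the pathway and the kind of molecule therefore cannot be told apart.

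The files name each sequence by a JGI Nemve1 gene model number and give no gene names. None of the 21946 model numbers matched the reference gene table, so the targeted genes were not located here and neither the knockdown nor the injected RNA was checked. Gene lists for BMP signalling, Wnt signalling and endomesoderm could not be tested for the same reason. Models are therefore called by number, with no function given. Of the 21946 models with a count in some library, 21139 had at least 1 count in the 6 libraries compared, and 13559 passed the filter on low counts.

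Counts on gene models were 5994290, 1936858 and 4502810 in dnTCF replicates 1 to 3, and 4064416, 4565652 and 3839455 in BMP2/4 morpholino replicates 1 to 3. The dextran libraries held between 1948761 and 5557005. The second dnTCF library was thus the shallowest of the 9, and the deepest was also a dnTCF library.

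BMP2/4 morpholino replicate 1 stood apart from every other library. Levels of gene models below are CPM, counts scaled to a total of 1000000 on gene models after TMM scaling (a correction for differences in RNA composition). Levels of rRNA and mitochondrial sequences are per 1000000 gene-model counts without TMM scaling. Correlations between libraries are across the 13559 tested models on the log2(CPM + 1) scale. They describe these libraries, since genes are not independent replicates. The correlation of morpholino replicate 1 was 0.78 to 0.84 with the dnTCF libraries and 0.82 and 0.79 with its own replicates 2 and 3. Morpholino replicates 2 and 3 correlated with each other at 0.94 and with the dnTCF libraries at 0.91 to 0.97. The dnTCF libraries correlated among themselves at 0.92 to 0.96. Apart from morpholino replicate 1, the ranges within and between the dnTCF and morpholino groups overlapped, and the closest pair of all 9 libraries was dnTCF replicate 3 with morpholino replicate 3.

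**Figure D1:**
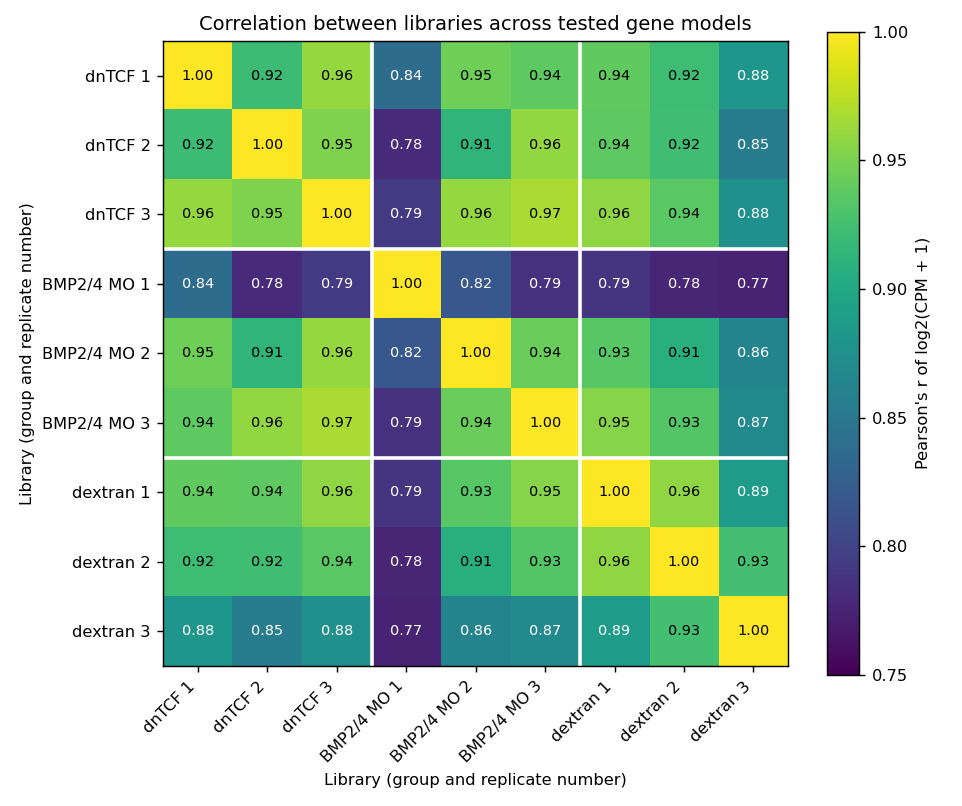
Pearson's r of log2(CPM + 1) between all 9 libraries across 13559 gene models, with white lines between the groups (MO, morpholino). The row of BMP2/4 morpholino replicate 1 lies between 0.77 and 0.84 against all other libraries, whereas dnTCF replicate 3 and morpholino replicate 3 reach 0.97.

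A principal component analysis of the 6 libraries gave the same picture. The first component held 65.9% of the variance and placed morpholino replicate 1 at 134, with the other 5 libraries between -37.1 and -7.56. The second held 16.3% and ran from -40.0 in morpholino replicate 2 to 53.7 in dnTCF replicate 2, with libraries of both groups on either side. Neither component separated the groups.

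The spread within a group was widest with the morpholino. The median over models of the SD between libraries was 0.32 on the log2 scale with dnTCF, 0.61 with the morpholino and 0.37 with dextran. Without morpholino replicate 1 the morpholino value was 0.27. The remaining pair of morpholino libraries was thus about as uniform as the dnTCF group, whose pairs gave 0.20 to 0.33.

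The tables also hold counts that lie outside the gene models. The share of counts with no assigned reference sequence was 41.1%, 40.3% and 39.6% with dnTCF, against 58.9%, 42.0% and 43.5% with the morpholino. Every dnTCF library lay below every morpholino library, by a narrow margin outside morpholino replicate 1 (exact permutation p = 0.1, two-sided, the smallest that 3 against 3 can give; adjusted p = 0.3 over 6 measures). Counting error on these shares was at most 0.053 percentage points (half-width of the 95% Wilson interval, which covers counting error only). In the dextran libraries the share was 49.2%, 57.1% and 87.8%.

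Counts on the mitochondrial sequence were lower with dnTCF than with the morpholino in every library. They stood at 31.7, 24.3 and 41.1 CPM of gene-model counts with dnTCF, against 498, 278 and 60.4 CPM with the morpholino. The means were 32.3 ± 8.43 with dnTCF and 279 ± 219 with the morpholino (SD, n = 3 each), 8.61 times as much with the morpholino (exact permutation p = 0.1, the smallest possible; adjusted p = 0.3). Without morpholino replicate 1 the morpholino mean was 169, or 5.23 times the dnTCF mean. The highest dnTCF library had a 95% Wilson interval of 35.6 to 47.5 CPM and the lowest morpholino library one of 53.1 to 68.7, so the gap between them exceeded counting error. With dextran the values were 75.6, 8.72 and 59.0 CPM, which overlapped both groups.

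Ribosomal RNA was lower on average with dnTCF, and the groups overlapped. The 28S sequence stood at 4384, 6269 and 8302 CPM with dnTCF and at 9354, 10203 and 5076 CPM with the morpholino (exact permutation p = 0.4, adjusted p = 0.6). The 18S sequence stood at 1798, 3424 and 4343 CPM with dnTCF and at 5871, 8791 and 3483 CPM with the morpholino (exact permutation p = 0.2, adjusted p = 0.4). Its mean was 1.90 times as high with the morpholino. The libraries were enriched for poly-A RNA, and the removal of rRNA was not measured. Whether the mitochondrial and ribosomal differences come from the preparation of the libraries or from the embryos was not tested.

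**Figure D2:**
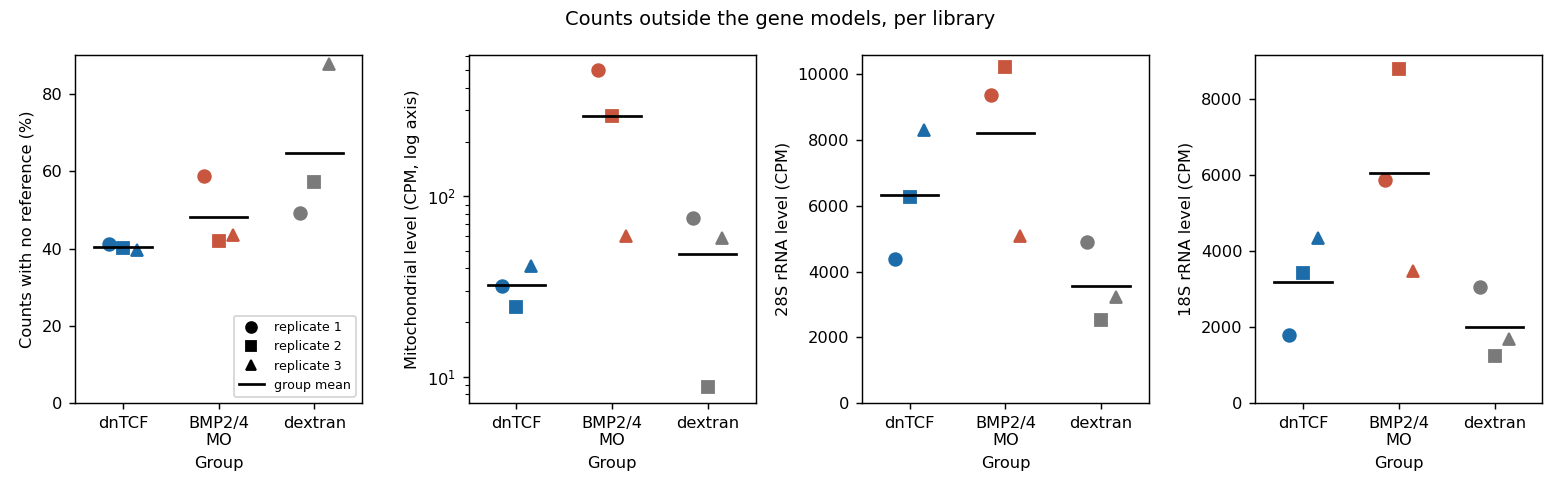
Share of counts with no reference (percent) and levels of the mitochondrial, 28S and 18S sequences (CPM of gene-model counts; the mitochondrial axis is logarithmic) in each library, with the group mean as a line (MO, morpholino). The dnTCF libraries lie below all morpholino libraries for the unassigned share and the mitochondrial level, and overlap them for both rRNAs.

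Detection and concentration of counts overlapped between the groups. Brought to the depth of the shallowest library, 17006, 16002 and 16794 models were detected with dnTCF and 15331, 17253 and 16458 with the morpholino (exact permutation p = 0.7, adjusted p = 0.7). The 100 most abundant models took 21.0%, 26.2% and 22.5% of gene-model counts with dnTCF and 31.4%, 20.8% and 24.3% with the morpholino (exact permutation p = 0.7, adjusted p = 0.7). For both measures the extreme value of the 6 libraries, the lowest detection and the highest concentration, was that of morpholino replicate 1.

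Across gene models, no difference between dnTCF and the morpholino passed the test. Of 13559 models, edgeR's quasi-likelihood test with Benjamini-Hochberg adjustment called 0 (0% called; lowest adjusted p = 0.911). At an unadjusted p under 0.05, 90 models were higher with dnTCF (0.664% of those tested) and 545 were lower (4.02%), which together make 4.68%. That is less than the 5% which this level passes where nothing differs, so the sets described below are not shown to differ between the groups. Limma-voom also called 0 models. Limma-voom with library quality weights called 1 (0.00738%), and DESeq2 called 4 of 13476 models with a p-value (0.0297%). At the unadjusted level the share in either direction exceeded 5% in some fits. It was 11.6% without morpholino replicate 3 and 6.98% without morpholino replicate 2. By DESeq2 it was 5.86%, and it was 5.10% both with quality weights and with a filter of 10 counts. In all other fits it was under 5%. In bulk RNA from whole embryos, fewer cells of a type and less RNA per cell cannot be told apart for any of these models.

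Most estimated differences were small. The median size of the log2 difference was 0.35 in either direction, a 1.28-fold difference, and 90% of models lay under 1.99-fold. The median of the signed differences (dnTCF minus morpholino) was -0.03, and 47.6% of models had a value above 0. Scaling by library totals moved that median by 0.13 to 0.09, and with it the models at an unadjusted p under 0.05 became 105 higher (0.774%) and 286 lower (2.11%), so that 26.9% of them were higher with dnTCF, against 14.2% under TMM.

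**Figure D3:**
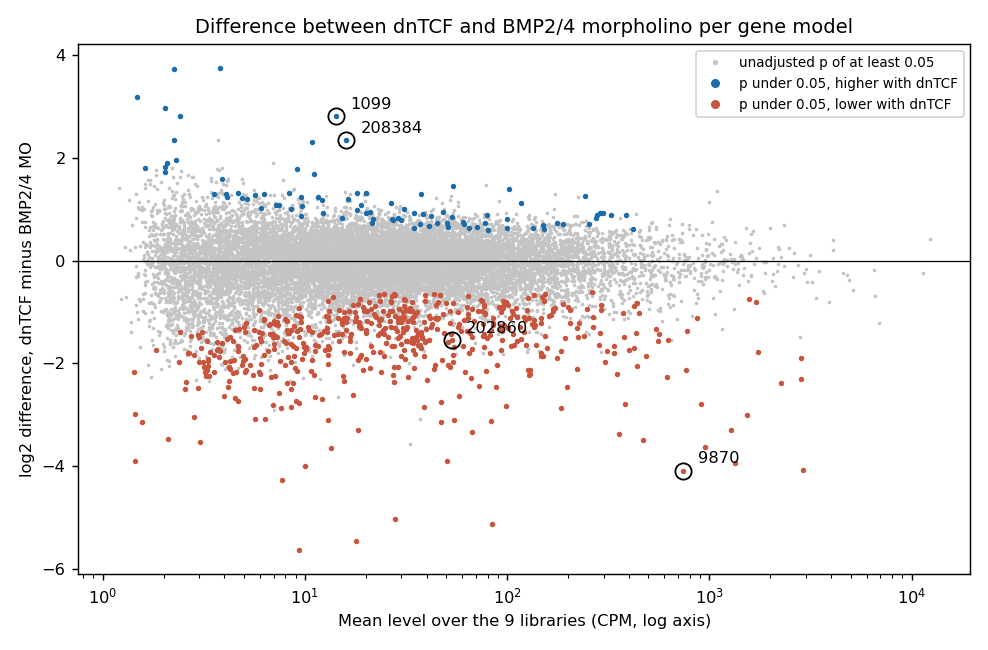
Log2 difference of dnTCF minus BMP2/4 morpholino (MO) for each of 13559 gene models against its mean level over 9 libraries (CPM, log axis). Coloured points have an unadjusted edgeR p under 0.05, 90 above and 545 below 0, and circles mark the 4 models described by number.

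The width of the intervals shows what these libraries can bound. The 95% interval of the log2 difference had a median half-width of 1.01, a factor of 2.02. It lay wholly within a 2-fold difference for 2909 models (21.5%) and within a 4-fold difference for 10284 (75.8%). For the other 10650 models a difference of 2-fold or more was not shown to be absent. Without morpholino replicate 1 the number bounded within 2-fold was 5269, and without any other single library of the comparison it was lower, at 1602 and 1365 without morpholino replicates 2 and 3 and at 1412, 1774 and 1222 without dnTCF replicates 1 to 3.

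The bound depended on the level of a model. In models under 3 CPM the median half-width was 1.80 and 0 of 1013 were bounded within 2-fold. Between 10 and 30 CPM the half-width was 0.95 and 778 of 3821 (20.4%) were bounded. Above 100 CPM it was 0.79 and 807 of 2009 (40.2%) were bounded. Between 30 and 100 CPM the half-width was already 0.81, so intervals narrowed little above 30 CPM.

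Lower models outnumbered higher ones in each band of levels examined. Among models of 3 to 10 CPM, 0.595% were higher and 4.23% lower at the unadjusted level, and above 100 CPM 0.796% were higher and 5.38% lower. Under 3 CPM the shares were 0.987% and 1.68%.

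Counting models without any fit, the 3 dnTCF libraries did not overlap the 3 morpholino libraries for 1285 models (9.48%), 616 of them higher (4.54%) and 669 lower (4.93%) with dnTCF. With a difference of at least 2-fold between the means, 91 models were higher (0.671%) and 261 lower (1.92%). Libraries of 3 against 3 separate fully with a probability of 0.1 where nothing differs, so the 9.48% is not an excess. The numbers in each direction were close among all models without overlap. Lower values with dnTCF were more frequent among those with large differences. Both statements describe these libraries and do not show a difference between the groups.

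In most models lower with dnTCF, morpholino replicate 1 was the highest of the morpholino libraries. It was so in 453 of the 545 (83.1%), whereas over all tested models it was the highest in 38.9%. The median log2 ratio of a morpholino library to the dnTCF mean over these models was 2.14 in replicate 1, 0.73 in replicate 2 and 0.34 in replicate 3. The same ratio in the dextran libraries was 0.10, -0.02 and 0.07. These values describe the models, which were selected on the morpholino and dnTCF libraries themselves.

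The 90 models higher with dnTCF showed the mirror image at a smaller size. Morpholino replicate 1 was the lowest morpholino library in 74 of them, against 47.3% over all tested models. The median log2 ratio to the dnTCF mean was -1.41 in replicate 1, -0.80 in replicate 2 and -0.70 in replicate 3. Replicates 2 and 3 thus lay on the same side of dnTCF as replicate 1, closer to it. The groups did not overlap in 84 of the 90 models (93.3%), and in 269 of the 545 lower ones (49.4%), against 9.48% of all tested models. Choosing models by a small p for the same difference favours those without overlap, so nothing is read from these shares.

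Leaving out morpholino replicate 1 gave 126 models higher (0.901%) and 301 lower (2.15%) with dnTCF at the same unadjusted level, and 0 called. Of the 545 lower models 149 kept an unadjusted p under 0.05 in the same direction and 514 kept their sign, while their median log2 difference was -0.62 instead of -1.48. Of the 90 higher models 45 kept that p and 90 kept their sign, with a median of 0.78 instead of 0.99. Both sets were chosen on the same libraries, most of which stayed in this fit. That favours a kept sign and p, so these numbers are a description only. Leaving out morpholino replicate 3 gave the highest counts, 400 higher (2.83%) and 1237 lower (8.74%). Leaving out morpholino replicate 2 gave 146 higher (1.05%) and 823 lower (5.93%). Without dnTCF replicate 1 there were 41 higher (0.293%) and 326 lower (2.33%), without dnTCF replicate 2 there were 75 (0.529%) and 264 (1.86%), and without dnTCF replicate 3 there were 45 (0.322%) and 258 (1.84%). The models lower with dnTCF outnumbered the higher ones in each of these fits, which share most of their libraries. The size of the imbalance varied with the method. By limma-voom on all 9 libraries 135 models were higher and 244 lower, together 2.8% of those tested. Of these models 35.6% were higher, against 14.2% by edgeR. No model passed the adjusted threshold in any fit with 1 library left out (lowest adjusted p = 0.246).

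**Figure D4:**
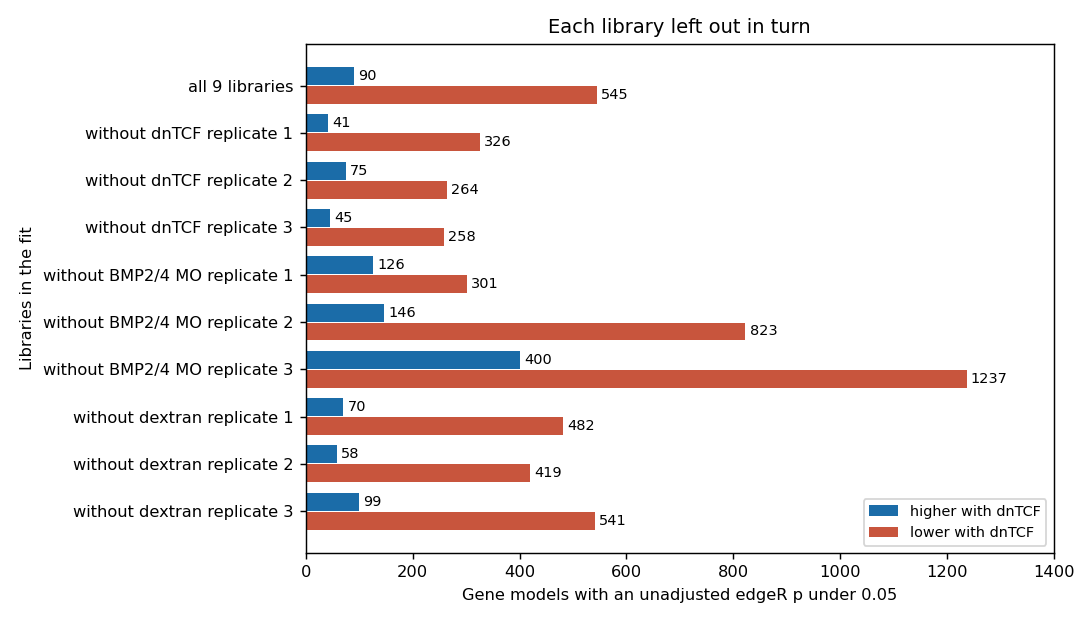
Number of gene models with an unadjusted edgeR p under 0.05, higher (blue) and lower (red) with dnTCF than with BMP2/4 morpholino (MO), with all 9 libraries and with each library left out in turn. The count of lower models runs from 258 to 1237 and exceeds the count of higher models in every fit.

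The dextran mean was nearer to the dnTCF mean than to the morpholino mean, on the log2(CPM + 1) scale, for 485 of the 545 lower models (89.0%) and for 70 of the 90 higher ones (77.8%), against 65.5% of all tested models. The models were chosen for morpholino values far from dnTCF, mostly those of replicate 1, which by itself favours this order, so the shares are a description only.

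Models 202860 and 1099 had the smallest unadjusted p in their direction, and each showed dextran at the level of one group. Model 202860 (an fgenesh model on scaffold 38) had 32.2, 35.9 and 29.7 CPM with dnTCF, 85.1, 112 and 87.5 CPM with the morpholino, and 31.0, 30.8 and 35.3 CPM with dextran. All 3 morpholino libraries were high, morpholino replicate 1 no more than the others, and the dnTCF and dextran libraries overlapped. The log2 difference of dnTCF minus morpholino was -1.54 (SE 0.265, 95% interval -2.13 to -0.96, edgeR adjusted p = 0.911), so the level was 2.91 times as high with the morpholino. It was 0.01 for dnTCF minus dextran (SE 0.262, edgeR adjusted p = 1.00) and 1.55 for the morpholino minus dextran (SE 0.265, edgeR adjusted p = 0.197). With 1 library left out, the dnTCF minus morpholino value stayed between -1.60 and -1.40. DESeq2 (adjusted p = 4.557e-05) and limma-voom with quality weights (adjusted p = 0.0288) called it.

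Model 1099, a protein-based (Genewise) model on scaffold 61, was high with dnTCF and not with the others. It had 44.2, 18.5 and 36.3 CPM with dnTCF on 295, 34 and 171 counts, 2.70, 5.61 and 5.66 CPM with the morpholino on 8, 28 and 22 counts, and 7.35, 5.96 and 1.36 CPM with dextran. Every dnTCF library lay above every morpholino and every dextran library, and the morpholino and dextran libraries overlapped. The log2 difference of dnTCF minus morpholino was 2.81 (7.01-fold, SE 0.584, 95% interval 1.52 to 4.10, edgeR adjusted p = 0.911). It was 2.73 for dnTCF minus dextran (SE 0.587, edgeR adjusted p = 0.335) and -0.08 for the morpholino minus dextran (SE 0.588, edgeR adjusted p = 0.964). DESeq2 called it (adjusted p = 0.0130) and limma-voom with quality weights did not (adjusted p = 0.280). The dnTCF libraries also had the lowest unassigned shares, whose part in this difference was not tested.

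Models 208384 and 9870 were named for the size of their fold. Model 208384 (an fgenesh model on scaffold 91) was second to model 1099 in fold among 71 eligible higher models. It had 42.7, 8.69 and 15.1 CPM with dnTCF, 1.69, 6.41 and 4.89 CPM with the morpholino and 17.3, 22.9 and 24.8 CPM with dextran. The lowest dnTCF library, on 16 counts, lay just above the highest morpholino library, and the dextran libraries overlapped dnTCF and not the morpholino. The log2 difference of dnTCF minus morpholino was 2.34 (SE 0.621, 95% interval 0.97 to 3.71, edgeR adjusted p = 0.911), and 1.44 without dnTCF replicate 1. It was 0.06 for dnTCF minus dextran (SE 0.576, edgeR adjusted p = 1.00) and -2.28 for the morpholino minus dextran (SE 0.624, edgeR adjusted p = 0.304).

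Model 9870, a Genewise model on scaffold 13417, had the largest fold of 255 eligible lower models, and its dextran mean was far above both groups. It had 4.34, 8.69 and 4.88 CPM with dnTCF, 215, 13.2 and 65.9 CPM with the morpholino, and 152, 541 and 5680 CPM with dextran. All morpholino and all dextran libraries lay above the dnTCF libraries, and the lowest dextran library lay within the morpholino range. The log2 difference of dnTCF minus morpholino was -4.09 (SE 1.34, 95% interval -7.04 to -1.14, edgeR adjusted p = 0.911), and -2.82 without morpholino replicate 1. It was -8.53 for dnTCF minus dextran (SE 1.60, edgeR adjusted p = 0.335) and -4.44 for the morpholino minus dextran (SE 1.30, edgeR adjusted p = 0.304). Its level was highest in dextran replicate 3, where the unassigned share was highest, and lowest in the dnTCF libraries, where that share was lowest. Across the 9 libraries its log2(CPM + 1) followed that share at r = 0.92, and 8 other tested models followed its own level at r over 0.95. Both correlations are descriptions over libraries that share groups, and dextran replicate 3 is the highest in both measures. The part of the unassigned share in its difference was not tested.

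**Figure D5:**
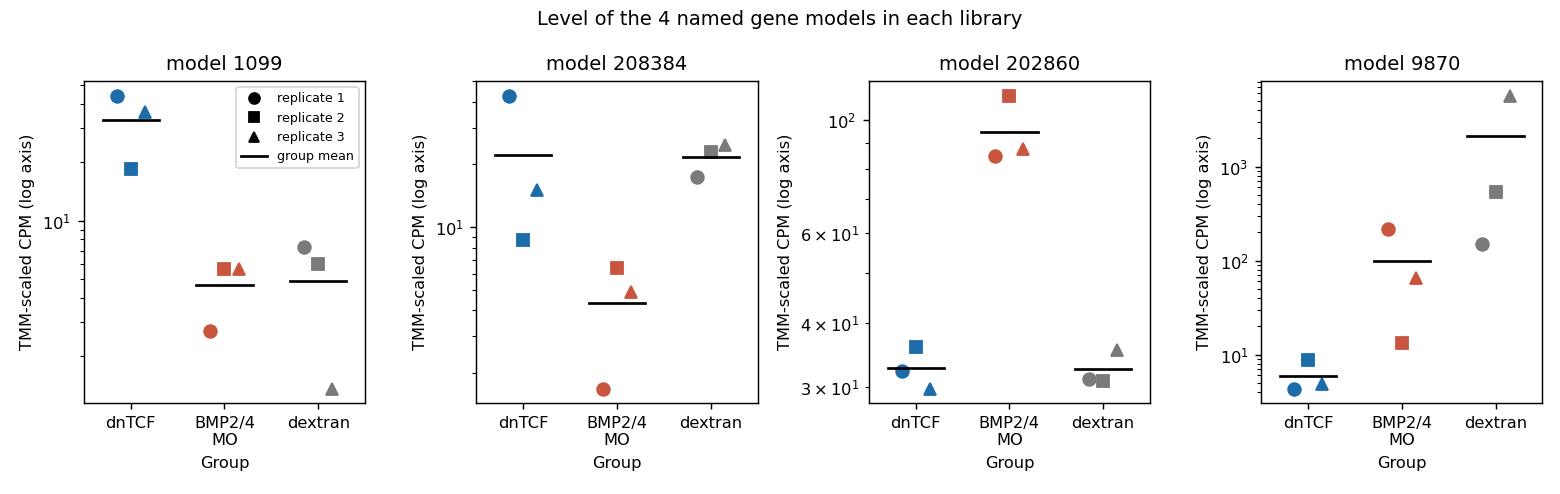
Level of models 1099, 208384, 202860 and 9870 in each library (TMM-scaled CPM, log axes that differ between panels), with the group mean as a line (MO, morpholino). Model 1099 is high in all 3 dnTCF libraries, model 202860 in all 3 morpholino libraries, and model 9870 reaches 5680 CPM in dextran replicate 3.

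DESeq2's other calls were models 221490 and 85294, named here after their values were seen. Both were lower with dnTCF. Model 221490 had 32.4, 31.5 and 24.4 CPM with dnTCF, 251, 121 and 56.1 CPM with the morpholino and 25.8 to 28.4 CPM with dextran (DESeq2 log2 difference -2.31, SE 0.507, adjusted p = 0.0228). Model 85294 had 14.2, 9.23 and 9.55 CPM with dnTCF, 83.4, 36.6 and 30.9 CPM with the morpholino and 7.02 to 13.3 CPM with dextran (DESeq2 log2 difference -2.21, SE 0.502, adjusted p = 0.0370). In both, as in model 202860, the dextran libraries lay beside dnTCF and every morpholino library was higher, and unlike in model 202860 morpholino replicate 1 was the highest. Without it the edgeR differences were -1.58 and -1.59. These 3 lower models and model 1099 made up the calls of DESeq2, and edgeR gave each an adjusted p of 0.911. The log2 differences were close between the tools. For model 202860 they were -1.57 (SE 0.265) by DESeq2 and -1.54 (SE 0.265) by edgeR, so the tools differed in the test rather than in the estimate. Both read the same counts, so a call by DESeq2 is not separate evidence.

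Models with counts in every library of one group and 0 in the other had low sums. Of the 15257 models with at least 1 count in all 3 dnTCF libraries, 36 had 0 in the morpholino libraries. These 36 had a median of 5 counts summed over dnTCF and a highest sum of 28, and 30 of them had a dextran count. In the other direction there were 26 of 14603 models. These 26 had a median of 7 summed counts in the morpholino libraries and a highest of 23, and 19 of them had a dextran count. None of either kind had at least 5 counts in each library. A sum of 0 over the 12469523 gene-model counts of the morpholino libraries allows a level of up to 0.241 CPM, counting error alone.

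The annotation names tell how a model was predicted and on which scaffold it lies. Models extended with expressed sequence tags, Genewise and fgenesh predictions among them, numbered 5777, with 28 higher (0.485%) and 269 lower (4.66%) at the unadjusted level. Models from Genewise, which aligns known proteins, without that extension numbered 4891, with 33 higher (0.675%) and 142 lower (2.90%). Models from the gene finder fgenesh without it numbered 2891, with 29 higher (1.00%) and 134 lower (4.64%). The median level was 42.2 CPM in the first class, 13.5 in the second and 10.4 in the third, and the part of level and length in these shares was not tested.

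By scaffold, the 545 lower ones lay on 294 of 1192 scaffolds with a tested model and the 90 higher ones on 76. The largest number of lower models on a scaffold was 10 of 117 tested, on scaffold 8 (8.55%, against 4.02% of all tested models), and of higher models 4 of 73, on scaffold 46 (5.48%, against 0.664%). Among the 210 scaffolds with at least 20 tested models, the highest share of lower models was 5 of 27, on scaffold 162, against 4.02% of all tested models. These scaffolds were picked as the highest in the same data, which by itself puts them above the share of all models, so nothing is read from them. No test of clustering was made, and coordinates within scaffolds were not used here.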

How the data were processed

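Poly-A RNA of whole embryos was sequenced as single-end 50 bp reads, per the labels' protocols. The authors deposited 1 table of raw counts per library, with a row for each reference sequence; the submitters' processing notes list FastQC and Bowtie2 2.2.0. How reads were counted, with which strand setting, and how reads matching several models were treated is not given in the sources used; near-identical models may share reads. Per the row names, the reference held JGI Nemve1 gene models and 18S, 28S and mitochondrial sequences. A model absent from a table was set to 0. The asterisk row, which names no sequence (39.6% to 87.8% of a library) and the 18S, 28S and mitochondrial rows were left out of library sizes and tests. No library pair held identical counts.

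Counts were fitted with edgeR 4.0.16 (R 4.3.3) on all 9 libraries with 1 mean per group: filterByExpr, TMM scaling, quasi-likelihood F-test of dnTCF minus morpholino, Benjamini-Hochberg adjustment over 13559 models, called at an adjusted p under 0.05. Standard errors came from the F statistic, and intervals from its total degrees of freedom. Folds of means in the counts without overlap used CPM + 0.5. DESeq2 1.42.0 and limma 3.58.1 were alternatives. Library measures were compared by exact two-sided permutation of the difference of means (scipy 1.17.1). Detection at equal depth was computed by exact rarefaction. The pipeline was run on simulated counts with the same spread in every library, so they held no divergent library like morpholino replicate 1.

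Up to 2 models per direction are named: the smallest p and the largest fold among models at an unadjusted p under 0.05 with no overlap, at least 10 counts in each library of the higher group and at least 10 in sum in the lower one. The members, lists and tests were chosen with earlier results of these data known. P-values rest only on these samples. Those of edgeR set a difference against a spread that also drew on the dextran libraries and was partly pooled across models.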

Additional observations from a re-analysis of the deposited data

How the results depend on the processing

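The count of 0 models called by edgeR held under every scaling, filter and choice of libraries tried and at an adjusted p under 0.1; limma-voom with quality weights called 1 and DESeq2 called 4. Models higher with dnTCF at an unadjusted p under 0.05 (90) numbered 139 with no filter, 49 in a fit on only the 6 libraries, 204 without the 2 divergent libraries together (morpholino 1 and dextran 3), 214 by limma-voom with quality weights, and 41 to 400 with 1 library left out. Lower models (545) numbered 286 with library totals, 833 with no filter, 325 on the 6 libraries, 244 by limma-voom, and 258 to 1237 with 1 library left out. With the replicate number as a block, lower models numbered 300, and 202 on the 6 libraries with the block (a fit chosen after seeing the data). Both directions together made up 2.84% of tested models on the 6 libraries, 4.55% without the 2 divergent libraries and 5.10% with quality weights. The share was 2.88% with library totals, 2.8% by limma-voom, 2.96% with the block and 2.1% on the 6 libraries with the block. With 1 library left out it was 2.2% to 11.6%, against 4.68% in the main fit. Same-numbered dnTCF and morpholino libraries deviated from their group means with correlations of 0.33, -0.18 and 0.12, so the numbers were not taken to pair the samples. Models bounded within 2-fold (2909) numbered 6345 without these 2 libraries, 6747 with quality weights, 677 on the 6 libraries with the block, and 1222 to 5269 with 1 library left out. Models with no overlap and at least 2-fold higher (91) numbered 165 with no filter, 10 at 3-fold and 70 to 631 with 1 library left out, and lower ones (261) 164 with library totals, 445 with no filter, 87 at 3-fold and 218 to 861. Without morpholino replicate 1 the dnTCF minus morpholino differences of detected models and of the share of the 100 most abundant models changed sign, to -255 and 0.667 (ranges with 1 library left out -255 to 706 models and -4.65 to 0.667 percentage points). The median SD within a group with 1 library left out was 0.20 to 0.33 for dnTCF, 0.27 to 0.66 for the morpholino and 0.24 to 0.38 for dextran. The named models kept their direction in all 88 values under alternatives, of which 3 passed an adjusted p under 0.05. These models were chosen for a small p and no overlap in the same libraries. That choice favours a kept direction, so nothing is read from it. Counts with no filter were taken over 21946 models, against 13559 in the main fit, which by itself raises them. The share in either direction at an unadjusted p under 0.05 was 4.43% with no filter, against 4.68%. The cause of the other shifts was not tested. Few counts limit models under 3 CPM.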

Other observations

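The ratio of 18S to 28S counts within a library, computed after the values of both rRNAs were seen, was 0.410, 0.546 and 0.523 with dnTCF, 0.628, 0.862 and 0.686 with the BMP2/4 morpholino, and 0.623, 0.489 and 0.527 with dextran. The dnTCF libraries all lay below the morpholino libraries (exact permutation p = 0.1, two-sided, the smallest that 3 against 3 can give), and the dextran libraries overlapped dnTCF and lay below the morpholino libraries.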
